A study of Rattus norvegicus with 9 samples.

Results

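The late stage of ischemia was described by setting the superior mesenteric arteries (SMAs) of 3 rats after 4 h of ischemia against those of 3 normal rats. A gene entered when at least 10 counts were present in 3 or more of these 6 libraries, which left 14433 of the 37203 gene symbols in the count table. All animals were 8-week-old Sprague-Dawley rats of 220 to 240 g, and no other genotype is given. The ischemia group had been bled through a catheter in the femoral artery under pentobarbital, and the 4 h were counted from the moment the hemorrhage model was in place. Whether the normal rats were anaesthetized or catheterized is not given in the sources used here. No cell type was separated before extraction, so a fall in the number of cells of one type cannot be told apart from less RNA per cell. A further 3 libraries, taken after 1 h of ischemia, shared the same normal libraries and entered the fits to estimate the spread between libraries and the slope on a neuron score. The study asked how early and late ischemia alter mitochondria-related pathways in the vessel.

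Blood loss lowers the flow to the gut and calls up the sympathetic nerves and the adrenal gland. Noradrenaline released by sympathetic fibres in the adventitia contracts the artery, while catecholamines, glucocorticoids and inflammatory signals reach the wall with the blood. Cells answer such signals first with immediate early genes, which need no new protein, and then with feedback inhibitors that switch the same pathways off. The cell bodies of sympathetic neurons lie in ganglia beside the root of the SMA. Dbh and Th code for the enzymes dopamine beta-hydroxylase and tyrosine hydroxylase, which make noradrenaline, and mark these neurons.

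Total counts per library ran from 13114273 to 15504240, and 17825 to 20597 genes had at least 1 count. Levels are given in CPM, counts divided by the TMM-scaled size of the library in megareads, and in the order of replicates 1, 2 and 3. The defining markers of smooth muscle were high in every library, with Myh11, the smooth muscle myosin, at 4690, 19040 and 17540 CPM in normal and 23250, 18780 and 9159 CPM at 4 h. Normal replicate 1 stood apart, with a summed smooth muscle list of 15800 CPM against 63000 and 67200 CPM in the other normal libraries and a summed Schwann cell list of 5370 CPM against 278 and 1010 CPM. At 4 h these sums were 90500, 67300 and 33300 CPM for smooth muscle and 587, 2640 and 2610 CPM for Schwann cells. Defining markers of the adrenal medulla and of neutrophils were near 0, with Pnmt at 0.224, 0.0722 and 0 CPM in normal and 0.981, 1.48 and 1.47 CPM at 4 h, and S100a8 at 0 in normal and 0, 0.576 and 0.0666 CPM at 4 h.

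After 4 h the artery held more RNA of early stress regulators (Sik1, Nfil3, Nr4a1, Csrnp1), of NF-kB inhibitors (Nfkbia, Nfkbiz), of the receptor Relt and of Mfsd2a, Apold1 and Slc25a25, and less of Zbtb26, Zscan12, Kctd11 and Ptafr. With groups as the only term, edgeR called 15 genes at 4 h, which is 0.104% of the 14433 tested. A call needs an adjusted p below 0.05 and a change of over 1.5-fold. Of these genes 11 were higher (0.0762% of all tested) and 4 were lower (0.0277%). Many more genes lay below the threshold, since 1942 genes (13.5%) reached an unadjusted p below 0.05, 782 higher (5.42%) and 1160 lower (8.04%). In 2839 genes (19.7%) all 3 libraries at 4 h lay on one side of the normal ones, of which 1218 were higher (8.44%) and 1621 lower (11.2%). The count of calls rested on single libraries. It was 2 without normal replicate 1, 4 without normal replicate 2, 5 without normal replicate 3, 3 without 1 h replicate 3, 6 without 4 h replicate 1 and 3 without 4 h replicate 2, and it stayed between 13 and 15 without any of the others. P-values measure the spread between these libraries. They were analysed as separate rats. The paper states that rats were killed at the end of ischemia and that the artery was removed after that. It also describes its samples as coming from 3 individuals, so the sources used here do not fully settle whether a rat gave samples to more than one group.

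Among the rising genes, 4 code for regulators that are switched on early after a stimulus. Sik1, the salt-inducible kinase that is induced by cAMP and restrains the CREB coactivators, was at 8.84, 6.43 and 6.14 CPM in normal and at 112, 169 and 139.5 CPM at 4 h. The libraries of each group lay close together and far from those of the other, and the rise was 19.6-fold (log2 fold change 4.29, SE 0.26, adjusted p = 0.00164). Sik1 was the call that held in all 19 alternative analyses. Nfil3, a repressor that binds the promoters of clock output genes, rose from 9.06, 13.7 and 14.3 to 122, 145 and 97.0 CPM (log2 fold change 3.30, SE 0.25, adjusted p = 0.00414). Nr4a1, an orphan nuclear receptor of the immediate early class, went from 112, 75.5 and 94.2 CPM to 1746, 1611 and 782 CPM. All libraries at 4 h lay above the normal ones, with 4 h replicate 3 the lowest of its group (log2 fold change 3.88, SE 0.45, adjusted p = 0.0259). Csrnp1, a nuclear protein induced by axin and by many growth signals, was at 11.7, 19.6 and 13.3 CPM in normal and 116, 120.1 and 93.5 CPM at 4 h (log2 fold change 2.88, SE 0.32, adjusted p = 0.0213). After 1 h the same genes stood at 109.5, 134 and 95.7 CPM for Sik1, 69.5, 89.7 and 80.3 CPM for Nfil3, 655, 904 and 402 CPM for Nr4a1 and 77.5, 144 and 77.7 CPM for Csrnp1.

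A second set of rising genes belongs to NF-kB signalling. Nfkbia codes for the inhibitor that holds NF-kB in the cytoplasm and is itself an NF-kB target, and its level rose from 125, 93.1 and 102 to 509, 884 and 696 CPM, or 6.52-fold (log2 fold change 2.71, SE 0.28, adjusted p = 0.0213). Nfkbiz, an atypical nuclear inhibitor of the family that also helps to transcribe some target genes, was at 9.96, 14.5 and 8.34 CPM in normal and at 70.7, 95.6 and 113 CPM at 4 h (log2 fold change 3.09, SE 0.33, adjusted p = 0.0213). The groups did not overlap for either gene, and the order of the libraries at 4 h differed between them. Relt, a receptor of the TNF receptor family, was at 4.03, 2.74 and 2.05 CPM in normal and 78.7, 47.7 and 28.0 CPM at 4 h. Its spread at 4 h was wide, 51.5 ± 25.6 CPM (SD, n = 3), and the rise was 17.4-fold (log2 fold change 4.12, SE 0.51, adjusted p = 0.0323). After 1 h Relt was at 13.6, 18.6 and 8.05 CPM. Nfkbia was already at 499, 658 and 491 CPM at that time and Nfkbiz at 77.45, 146 and 119 CPM, all above their normal libraries.

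The remaining rising genes code for a transporter, an endothelial protein and a mitochondrial carrier. Mfsd2a, the lipid transporter that keeps the endothelial barrier of the brain tight, was close to absent in normal artery (0.503, 0.433 and 0.658 CPM) and present at 36.6, 20.2 and 28.8 CPM at 4 h, the largest change among the called genes at 53.0-fold (log2 fold change 5.73, SE 0.45, adjusted p = 0.00414). Apold1, an endothelial early response gene, rose from 21.8, 15.9 and 14.3 to 221, 547 and 707 CPM. Its lowest value at 4 h, in replicate 1, was still far above the highest normal value (log2 fold change 4.83, SE 0.47, adjusted p = 0.0186). Slc25a25, a carrier of ATP-Mg and phosphate in the inner mitochondrial membrane, was at 12.5, 19.0 and 25.0 CPM in normal and 132, 103 and 90.8 CPM at 4 h (log2 fold change 2.52, SE 0.27, adjusted p = 0.0213). Mfsd2a was already at 17.5, 38.5 and 20.15 CPM after 1 h, Apold1 at 462, 526 and 634.5 CPM and Slc25a25 at 83.0, 94.0 and 81.1 CPM. All of these values lay above the normal libraries. The last rising gene, LOC100912060, is an uncharacterised identifier outside the naming rule that was at 0.336, 0.217 and 0.220 CPM in normal and 1.96, 4.28 and 2.73 CPM at 4 h.

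The 4 falling genes are 2 zinc finger genes, an adaptor of protein breakdown and a receptor. Zbtb26, a zinc finger protein with a BTB domain, fell from 11.2, 12.6 and 13.97 to 2.45, 2.14 and 2.86 CPM, or 5.04-fold (log2 fold change -2.33, SE 0.24, adjusted p = 0.0204). Kctd11, an adaptor of a ubiquitin ligase that restrains Hedgehog signalling, was at 16.3, 19.3 and 18.3 CPM in normal and 4.17, 4.36 and 3.33 CPM at 4 h (log2 fold change -2.18, SE 0.24, adjusted p = 0.0213). In both genes the spread within each group was small beside the gap between the groups. Zscan12, a zinc finger protein with a SCAN domain, was at 18.4, 15.5 and 22.5 CPM in normal and 5.48, 3.79 and 4.53 CPM at 4 h (log2 fold change -2.03, SE 0.25, adjusted p = 0.0322). Ptafr, the receptor of platelet-activating factor on leukocytes and endothelium, fell from 16.5, 12.8 and 12.6 to 2.45, 2.55 and 3.80 CPM (log2 fold change -2.25, SE 0.28, adjusted p = 0.0323). Markers of macrophages, cells that carry this receptor, summed to 419, 119 and 208 CPM in normal and 117, 173 and 242 CPM at 4 h, and their part in the value of Ptafr was not tested. The values after 1 h were 4.04, 4.47 and 4.68 CPM for Zbtb26, 5.80, 8.15 and 5.80 CPM for Kctd11, 7.21, 6.28 and 7.42 CPM for Zscan12 and 4.38, 5.48 and 5.68 CPM for Ptafr, all below their normal libraries.

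**Figure D1:**
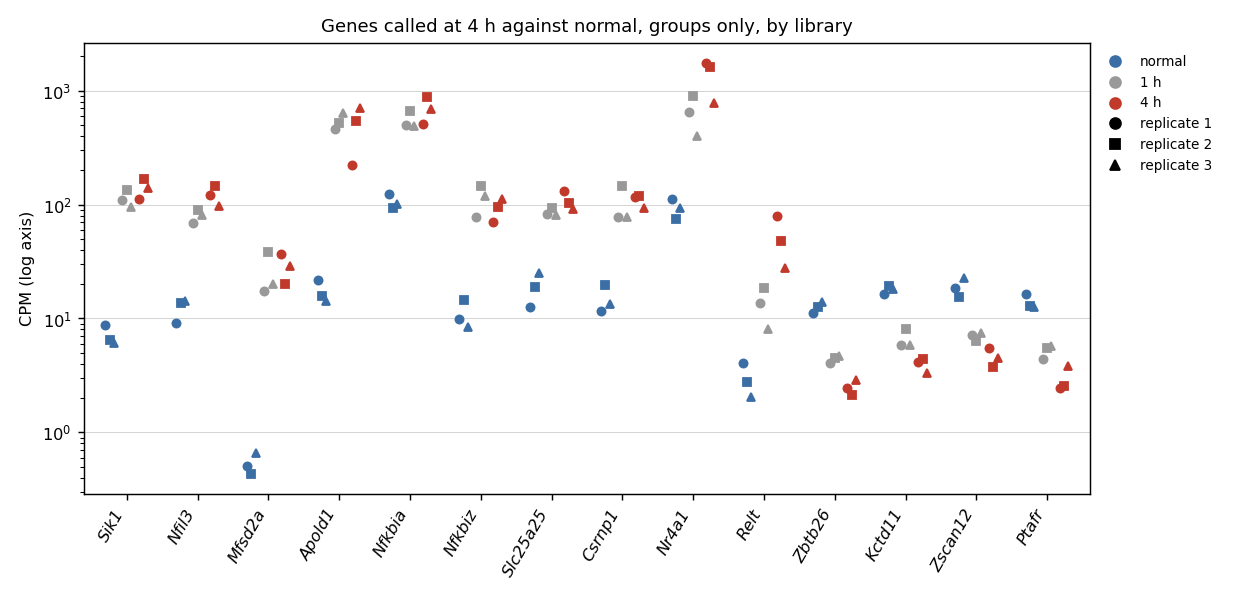
Level of the 14 named genes called at 4 h in each of the 9 libraries, in CPM on a log axis, with colours for the groups and symbols for replicates. All red points (4 h) lie above all blue points (normal) for the 10 rising genes from Sik1 to Relt and below them for the 4 falling genes from Zbtb26 to Ptafr. The grey points (1 h) entered the fit but not the contrast.

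Zfp111, Thap6, Mt1a, Cebpb, Wdr5b, Arhgap20 and Fem1b each had an adjusted p of 0.0504, and PVR had 0.0507. Mt1a, a metallothionein with near-identical copies, was at 2.24, 2.67 and 4.17 CPM in normal and 49.3, 52.2 and 65.6 CPM at 4 h. Wdr5b, chosen after its values were seen, was at 4.87, 7.36 and 5.85 CPM in normal and 0.818, 1.15 and 1.47 CPM at 4 h.

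Promoters are shown for 5 of the rising genes because they hold matches to the motifs of cAMP and NF-kB signalling, the pathways of Sik1 and of Nfkbia and Nfkbiz. RefSeq held a promoter of 300 bases (250 before and 50 after the start site, build GRCr8) for 12 of the 15 called genes, 8 rising and 4 falling. Mfsd2a, Csrnp1 and LOC100912060 had no entry. The 250 bases before the start site are printed 5′ to 3′ in the direction of the gene. Capitals mark the cAMP response element TGACGTCA, its part TGACG, and the NF-kB site, on either strand, so that CGTCA is TGACG read on the other strand. Sik1 lies at chr20:9958647-9958896 (minus strand), Nr4a1 at chr7:134259888-134260137 (plus strand), Slc25a25 at chr3:36116582-36116831 (minus strand), Nfkbia at chr6:78597073-78597322 (minus strand) and Nfkbiz at chr11:58251471-58251720 (plus strand).
Sik1: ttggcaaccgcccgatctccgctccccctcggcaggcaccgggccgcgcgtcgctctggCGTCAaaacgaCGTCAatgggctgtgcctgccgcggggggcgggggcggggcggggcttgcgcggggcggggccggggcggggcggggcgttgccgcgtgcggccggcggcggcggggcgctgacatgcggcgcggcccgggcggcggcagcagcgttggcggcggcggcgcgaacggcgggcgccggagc
Nr4a1: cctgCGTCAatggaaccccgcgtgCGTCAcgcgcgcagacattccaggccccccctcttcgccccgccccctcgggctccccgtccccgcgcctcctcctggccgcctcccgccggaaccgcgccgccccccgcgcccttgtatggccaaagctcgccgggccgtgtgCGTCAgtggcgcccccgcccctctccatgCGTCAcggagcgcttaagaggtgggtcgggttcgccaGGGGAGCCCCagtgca
Slc25a25: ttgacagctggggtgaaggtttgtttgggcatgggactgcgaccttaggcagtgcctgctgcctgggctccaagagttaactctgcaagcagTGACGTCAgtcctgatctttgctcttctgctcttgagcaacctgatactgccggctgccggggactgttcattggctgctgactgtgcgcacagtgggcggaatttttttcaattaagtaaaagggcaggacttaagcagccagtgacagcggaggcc
Nfkbia: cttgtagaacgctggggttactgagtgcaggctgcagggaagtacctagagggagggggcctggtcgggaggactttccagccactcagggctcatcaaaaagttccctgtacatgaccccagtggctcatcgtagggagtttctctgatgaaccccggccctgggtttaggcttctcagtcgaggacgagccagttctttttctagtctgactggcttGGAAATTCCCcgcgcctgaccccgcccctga
Nfkbiz: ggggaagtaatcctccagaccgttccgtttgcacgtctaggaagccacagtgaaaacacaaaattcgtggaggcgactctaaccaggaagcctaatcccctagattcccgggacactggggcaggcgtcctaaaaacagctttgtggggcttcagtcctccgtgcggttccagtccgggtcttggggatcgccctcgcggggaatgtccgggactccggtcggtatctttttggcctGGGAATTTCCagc

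Positions are counted from the start site, with negative values before it. The part TGACG was found 2 times in the Sik1 promoter and 4 times in that of Nr4a1, and the full TGACGTCA once, at position -158, in that of Slc25a25. It was present in 6 of the 8 rising promoters and 2 of the 4 falling ones, and in 21.2% of all 33469 promoters. The full element was in 1 of the 8 and in 1.83% of all. An NF-kB site was found in the promoters of Nfkbia (position -31), Nfkbiz (position -13) and Nr4a1 (position -16), and in that of the falling gene Zbtb26, against 4.18% of all promoters. The core of the glucocorticoid response element, ACANNNTGT, was in the promoters of Nfil3 and Apold1 and in 6.86% of all. The E-box CACGTG (6.42% of all) and the CArG box (1.64% of all) were in none of the 12 promoters. TGACG is contained in TGACGTCA and is counted there too. The shares of all promoters include genes that were not tested here, and no share over the tested genes was taken. These matches are letters in a window and not measured sites.

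The content of sympathetic neurons differed widely between the libraries of a group. Dbh was at 116, 0 and 65.8 CPM in normal and at 0.654, 0.247 and 2058 CPM at 4 h, and Th was at 61.7, 0.361 and 35.0 CPM in normal and 0.164, 0.987 and 584 CPM at 4 h. At 4 h replicate 3 was high and the other libraries held 8 and 3 reads of Dbh, while among normal libraries replicate 2 held none. After 1 h Dbh was at 1868, 225 and 1895 CPM. A neuron score was taken as the mean log2 CPM of Dbh and Th, and it was 6.4, -1.93 and 5.59 in normal, 10.2, 6.96 and 10.1 at 1 h, and -1.03, -0.60 and 10.1 at 4 h. Each gene was fitted again with this score beside the groups, which gives a slope (log2 change of the gene per log2 unit of the score) and a change at 4 h at equal score.

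At an adjusted p under 0.05, 637 of 14431 genes followed the score (4.41%), 610 rising with it and 27 falling with it. Of these 637, 13 reached an unadjusted p below 0.05 for 4 h against normal with groups only. None of the 15 called genes followed the score in edgeR, 1 of them had a slope with an unadjusted p under 0.05, and DESeq2 found 0 and limma voom 1 among them. Of the 610 genes, 598 had their highest value of the 6 libraries in 4 h replicate 3, and 7 separated the groups without overlap (1.15%, against 19.7% of all genes). Their median log2 fold change at 4 h was 2.08 with groups only, with a median SE of 1.40, and 0.70 at equal score, with a median SE of 0.53. The medians over all genes tested were 0.014 and -0.01. The 610 genes were chosen by their slope on a score that overlaps between the groups. Of the 6 libraries, that score is itself highest in 4 h replicate 3. These counts and the shift of the median therefore follow in part from the choice and are not separate results. Without 4 h replicate 3 the number that followed was 144, and without 4 h replicate 1 it was 325. Slopes of the 610 genes ran from 0.079 to 1.29 with a median of 0.42, and 245 were at 0.5 or more.

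Among genes with a mean of at least 20 CPM over the 6 libraries, the steepest slopes belonged to genes of axons and vesicles in neurons. Nefl, the light neurofilament chain, was at 34.6, 0 and 21.4 CPM in normal and 0.0818, 0.0823 and 649 CPM at 4 h (slope 1.16, SE 0.04, adjusted p = 8.41e-06). Slc6a2, the noradrenaline transporter that clears the transmitter from the cleft, was at 33.9, 0 and 20.9 CPM and 0.164, 0.0823 and 663 CPM (slope 1.11, SE 0.04, adjusted p = 8.94e-06). Both were high in 4 h replicate 3, lower in normal replicates 1 and 3, and at or near 0 in the rest. The same held for Ina (alpha-internexin, another neurofilament protein), Cadps and Snap25 (exocytosis), Kcnq3 (the M-type potassium channel), Lynx1 (a modulator of nicotinic receptors), Tmem178b and Syt4 (a synaptotagmin), with slopes from 0.93 to 1.18. Their log2 fold changes with groups only lay between 2.60 for Snap25 and 4.41 for Kcnq3, with SEs from 2.28 for Tmem178b to 2.69 for Nefl, and none was called. At equal score they lay between -0.69 for Ina and 1.29 for Kcnq3.

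**Figure D2:**
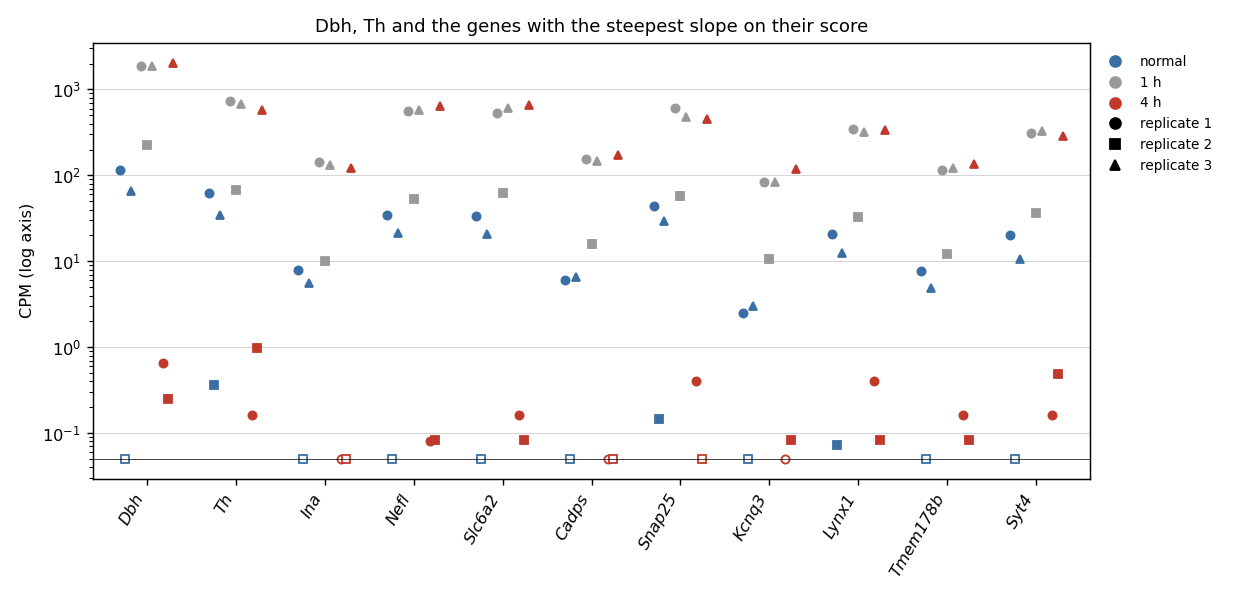
Level of Dbh, Th and 9 of the genes with the steepest positive slopes on their score, in CPM on a log axis, by library. Open symbols on the line at 0.05 CPM are values of 0. In every gene 4 h replicate 3 (red triangle) sits with 1 h replicates 1 and 3, while 4 h replicates 1 and 2 and normal replicate 2 lie under 1 CPM.

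Of a list of sympathetic neuron genes, 35 were tested beside Dbh and Th, and 28 of them rose with the score, with slopes from 0.41 to 1.16. The others were Hand2, Isl1, Sncg, Eml5, Gata2, Scg3 and Cartpt, with slopes from 0.04 for Hand2 to 0.41 for Cartpt. The median log2 fold change of all 37 members tested was 2.99 with groups only and 0.67 at equal score. No member was called at 4 h by edgeR, DESeq2 or limma voom with groups only, and 0 reached an unadjusted p below 0.05 in edgeR. Of the genes that fell as the score rose, Gpr20, an orphan receptor, was at 11.5, 32.1 and 25.0 CPM in normal and 58.0, 55.4 and 13.7 CPM at 4 h (slope -0.17, SE 0.04, adjusted p = 0.0455). Usp40 (a ubiquitin protease), Ccdc71l, Rps10l1 (which shares reads with copies of a ribosomal protein gene) and Pdk4 had slopes from -0.15 for Usp40 to -0.14 for Pdk4. The smooth muscle list sum was highest in 4 h replicates 1 and 2, where the score was lowest among the libraries at 4 h, and its part in these slopes was not tested. Members of some other lists followed the score in DESeq2 and limma voom, in either direction. Of 11 macrophage genes edgeR found 0, DESeq2 8 and limma voom 6, and of 72 cytosolic ribosome genes 0, 15 and 37. Over all genes these tools found 637, 1752 and 2442 of 14431. What the score tracks beside neurons was not tested.

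**Figure D3:**
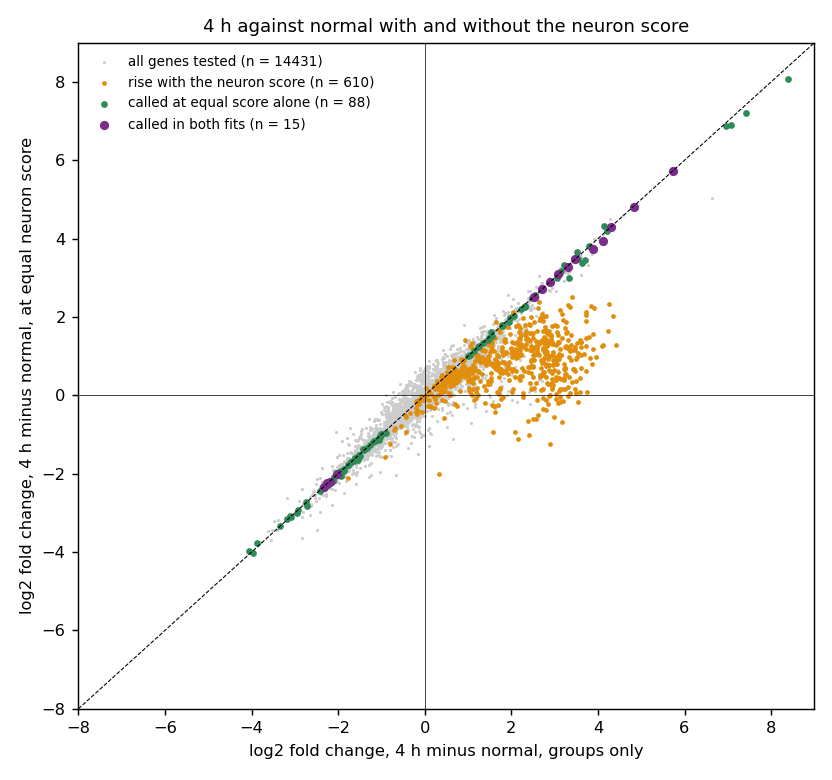
Log2 fold change of 4 h minus normal for 14431 genes, fitted with groups only (horizontal axis) and at equal neuron score (vertical axis). The 15 genes called in both fits and the 88 called at equal score alone lie close to the diagonal, while 578 of the 610 genes that rise with the score lie below it, and the median of the 610 goes from 2.08 to 0.70. The 610 were chosen by their slope in the fit of the vertical axis, so their shift is not a separate result.

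At equal neuron score 103 genes were called at 4 h (0.714%), 48 higher (0.333%) and 55 lower (0.381%), and 2395 genes reached an unadjusted p below 0.05. All 15 genes above were among them, so 88 further genes were called, 37 higher and 51 lower. Of the 103, RefSeq held promoters for 31 higher and 39 lower genes. TGACG was in 16 (51.61%) and 14 (35.9%) of these, against 21.2% of all promoters. The NF-kB site was in 6 (19.35%) and 2 (5.13%), against 4.18%. The glucocorticoid core was in 3 (9.68%) and 1 (2.56%), against 6.86%. Here too the shares of all promoters include genes that were not tested. The biological coefficient of variation was 34.9% in this fit and 47.4% with groups only. Of the 103, 8 also followed the score (7.77%, against 4.41% of all genes). Nnat, Limk1, Galnt14, Srcin1, Sox4 and Dusp7 rose with it, and Gja5 and Pdk4 fell with it. The count depended on 4 h replicate 3, the one library at 4 h in which Dbh and Th were high. Without it edgeR called 0 genes, with 1179 at an unadjusted p below 0.05, and no other tool was run without it. Leaving out another library gave 22, 2 and 34 calls for normal replicates 1, 2 and 3, 48, 30 and 23 for the replicates at 1 h, and 10 and 9 for 4 h replicates 1 and 2.

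Rising genes of this fit include inhibitors of growth signals, chemokines and transcription factors. Cdkn1a, the cyclin-dependent kinase inhibitor p21, was at 15.4, 69.7 and 19.8 CPM in normal and 773, 659 and 419 CPM at 4 h (log2 fold change at equal score 4.33, SE 0.39, adjusted p = 0.00825). With groups only its adjusted p was 0.062. Errfi1, an inhibitor of the EGF receptor, rose from 80.1, 278 and 136 CPM in normal to 3697, 1821 and 1334 CPM at 4 h (log2 fold change at equal score 3.81, SE 0.45, adjusted p = 0.0204). Cebpb, a transcription factor of inflammation and metabolism, rose from 13.7, 31.6 and 32.6 to 331, 385 and 194 CPM (log2 fold change at equal score 3.47, SE 0.41, adjusted p = 0.0192). In all of these every library at 4 h lay above every normal library.

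Chemokines that draw neutrophils varied widely at 4 h. Cxcl1 was at 1.18, 1.01 and 4.54 CPM in normal and 72.2, 202 and 634 CPM at 4 h, highest in replicate 3 (log2 fold change at equal score 6.89, SE 0.93, adjusted p = 0.0343). Cxcl2 had 1 count over the 3 normal libraries and 452 over those at 4 h, a ratio of 521 with a 95% Poisson interval of 93.5 to 20600 that covers counting error only. The ratio was 132 without 4 h replicate 3 and 316 without normal replicate 1, and at least 121 (against 3 counts over the group) without normal replicate 3, which held the 1 count. Its levels at 4 h were 1.88, 3.95 and 25.4 CPM (adjusted p at equal score = 0.0175), and the call was lost without any 1 of the 6 libraries of normal and 4 h. The neutrophil list summed to 13.3, 8.45 and 7.68 CPM in normal and 4.25, 16.3 and 53.8 CPM at 4 h, also highest in 4 h replicate 3. Of its 14 members 2 passed the count filter, Mpo and Lcn2, and Lcn2 is also on the glucocorticoid list. The defining markers S100a8 (0, 0.576 and 0.0666 CPM at 4 h) and S100a9 (0, 0.987 and 0.799 CPM) were highest in 4 h replicate 2. The part of neutrophils in the chemokine values was not tested.

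Adamts1, a secreted protease that cleaves versican and aggrecan, went from 71.8, 202 and 109 CPM to 1330, 1211 and 832 CPM (log2 fold change at equal score 3.18, SE 0.42, adjusted p = 0.0326). Pdk4, the kinase that shuts pyruvate dehydrogenase and so turns cells to fatty acids, rose from 81.4, 192 and 70.2 to 498, 837 and 277 CPM (log2 fold change at equal score 2.20, SE 0.27, adjusted p = 0.0235). Arrdc3, an alpha-arrestin that takes receptors off the cell surface, rose from 65.1, 102 and 89.0 to 389, 374 and 223 CPM (log2 fold change at equal score 1.87, SE 0.23, adjusted p = 0.0214). The groups did not overlap for any of these genes, though 4 h replicate 3 was lowest of its group in each. Nnat, an imprinted proteolipid gene of brain and fat, was at 5.88, 1.59 and 4.90 CPM in normal and 13.98, 12.3 and 46.0 CPM at 4 h (log2 fold change 2.55, SE 0.22, adjusted p = 0.00707, slope 0.18). Gem (a small GTPase that inhibits calcium channels), PVR (an adhesion receptor) and Fem1b (which picks substrates for a ubiquitin ligase) had log2 fold changes at equal score of 2.49, 2.28 and 1.23. Fem1b had the smallest of these changes, at 15.2, 15.7 and 13.5 CPM in normal and 34.8, 31.8 and 37.4 CPM at 4 h.

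Falling genes named from this fit include regulators of transcription and of the cell cycle. Nr1d1, the clock repressor REV-ERB alpha, fell from 198, 215 and 199 CPM in normal to 29.0, 49.9 and 35.2 CPM at 4 h (log2 fold change at equal score -2.44, SE 0.37, adjusted p = 0.0437). Hoxd4, a homeobox gene, fell from 18.3, 13.4 and 9.36 to 0.981, 1.73 and 2.53 CPM (log2 fold change at equal score -2.99, SE 0.40, adjusted p = 0.033). Cdca7, a target of Myc and E2F in dividing cells, fell from 7.78, 11.0 and 8.19 to 1.31, 2.06 and 0.733 CPM (log2 fold change at equal score -2.83, SE 0.31, adjusted p = 0.0171). The groups did not overlap for any of them.

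Gja5, the gap junction protein connexin 40 of arterial endothelium, fell from 18.5, 40.6 and 22.7 to 13, 10.5 and 4.66 CPM (log2 fold change at equal score -1.64, SE 0.22, adjusted p = 0.0326, slope -0.13). Rsrp1, a nuclear protein rich in arginine and serine, had narrow groups, at 318, 372 and 340.5 CPM in normal and 168, 178 and 138 CPM at 4 h (log2 fold change at equal score -1.11, SE 0.16, adjusted p = 0.0379). Axin2, a feedback inhibitor of Wnt signalling, fell from 15.4, 13.2 and 13.6 to 4.09, 4.77 and 5.86 CPM (log2 fold change at equal score -1.51, SE 0.22, adjusted p = 0.0383). Sox4, Zfp111, Thap6 and E2f2 (transcription factors or zinc finger proteins), Arhgap20 (a GTPase-activating protein) and Dusp7 (which switches off ERK) had log2 fold changes at equal score between -2.15 for E2f2 and -1.36 for Sox4. Over the 103 genes the median log2 fold change was 2.80 for the 48 that rose and -1.77 for the 55 that fell. The groups did not overlap for 46 and 55 of them, against 8.44% higher and 11.2% lower over all genes. The 103 were chosen by this same contrast, so their separation follows in part from the choice and is not a separate result.

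**Figure D4:**
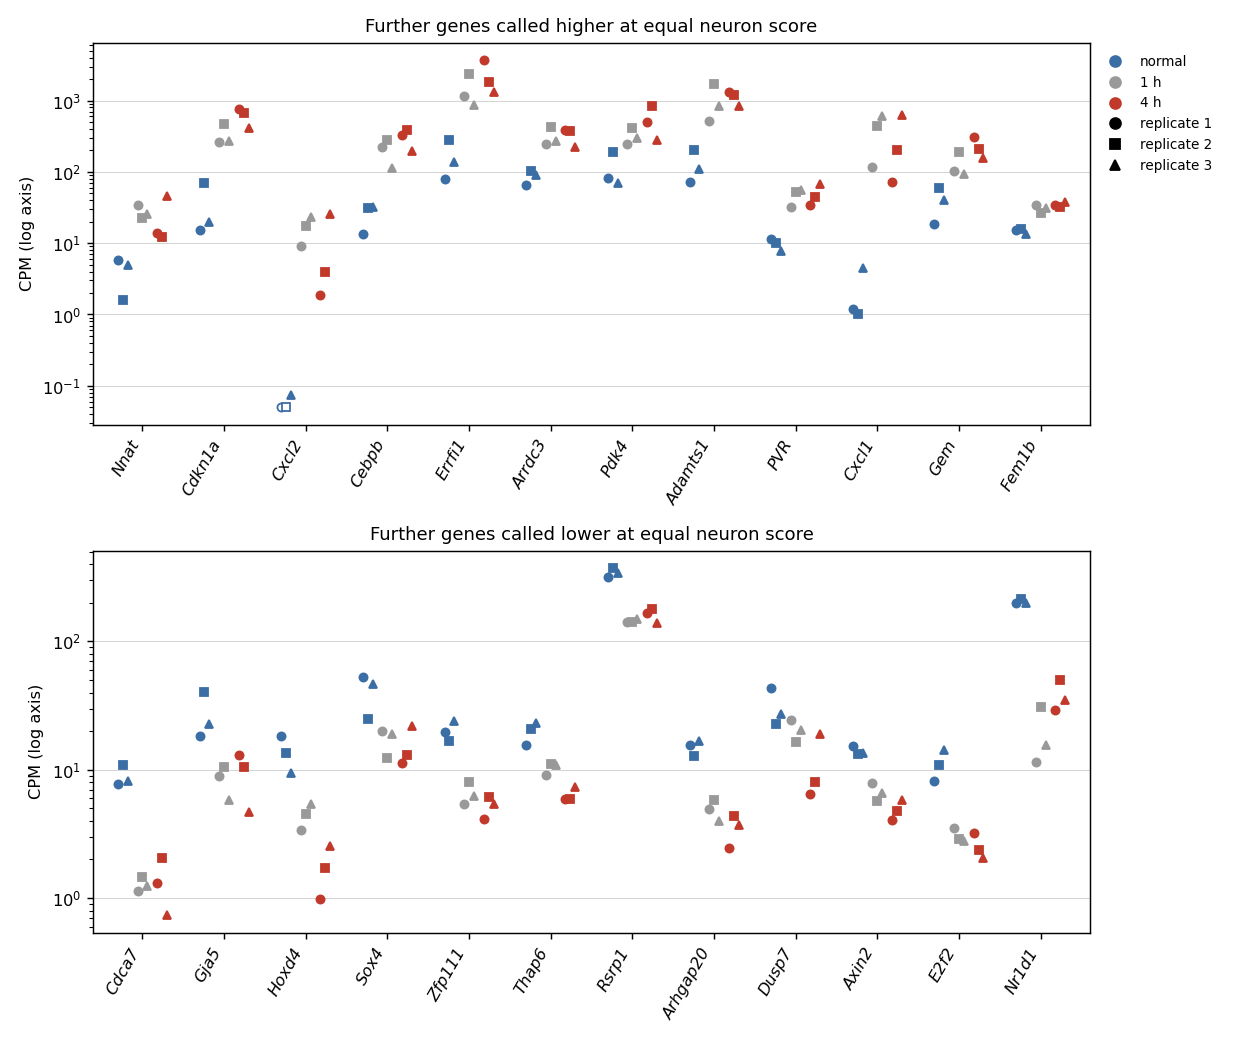
Level by library of the further genes named from the fit at equal neuron score, 12 higher (upper panel) and 12 lower (lower panel), in CPM on log axes. Open symbols for Cxcl2 are values of 0 drawn at 0.05 CPM. All red points (4 h) lie above the blue points (normal) in the upper panel and below them in the lower panel.

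Gene lists were then counted to place these genes in pathways. Several lists share members, such as Nfkbia, Per1 and Pdk4, and the lists were chosen with earlier results of these data known. The share of all genes at an unadjusted p below 0.05, 5.42% higher and 8.04% lower, is the background of each list. Over all genes DESeq2 called 1.77% higher and 2.87% lower, and limma voom 0.797% and 1.46%, which is the background of those tools' calls below. For the calls of edgeR below, the background is 0.0762% higher and 0.0277% lower with groups only. At equal score it is 0.333% higher and 0.381% lower. Of 28 glucocorticoid targets, 18 reached an unadjusted p below 0.05 in the higher direction (64.3%) and 1 in the lower (3.57%), and the median log2 fold change was 1.56. Mfsd2a and Nfkbia were called, and 8 members were called higher at equal score, among them Mt1a (4.21, SE 0.60), Cebpb and Cdkn1a. Mt2A, another metallothionein, was at 4.81, 8.59 and 5.41 CPM in normal and 89.8, 96.4 and 191 CPM at 4 h (adjusted p at equal score = 0.0536). Of 41 immediate early genes, 20 were higher (48.8%) and 3 lower (7.32%) by an unadjusted p below 0.05, with a median of 1.05. Sik1, Apold1, Csrnp1 and Nr4a1 were called, and Gem and Klf4 joined them at equal score. Klf4, a factor that moves smooth muscle cells out of the contractile state, was at 65.1, 73.1 and 44.6 CPM in normal and 163, 199.6 and 148 CPM at 4 h. The medians of all genes were 0.014 with TMM and -0.167 with scaling by library size alone, and with the latter those of the glucocorticoid and immediate early lists were 1.41 and 0.90.

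Of 35 genes of NF-kB signalling and inflammation, 14 were higher (40%, against 5.42% of all genes) and 1 was lower (2.86%, against 8.04%) by an unadjusted p below 0.05, with a median of 1.46 with groups only and 1.02 at equal score. Nfkbia, Nfkbiz and Relt were called with groups only, and Cxcl1 and Cxcl2 were added at equal score. Traf1, an adaptor of TNF receptors, went the other way, from 7.89, 3.90 and 3.44 to 0.245, 0.823 and 0.666 CPM (log2 fold change at equal score -3.08, SE 0.52, adjusted p = 0.0499).

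Of 21 clock genes 7 were higher (33.3%, against 5.42% of all genes) and 5 lower (23.8%, against 8.04%) by an unadjusted p below 0.05, with a median of 0.16, or -0.04 with scaling by library size alone. Beside Nfil3 and Nr1d1, calls at equal score were made for Dbp, Per1 and Arntl. Dbp, an activator of clock output that competes with Nfil3 for its sites, was at 56.1, 60.6 and 213 CPM in normal and 4.66, 10.04 and 7.92 CPM at 4 h (log2 fold change at equal score -3.78, SE 0.58, adjusted p = 0.0437). Per1, a clock repressor that glucocorticoids and cAMP induce, rose from 183, 195 and 149.6 to 639, 500.5 and 411 CPM (log2 fold change at equal score 1.52, SE 0.23, adjusted p = 0.0437). Arntl, the core activator, rose from 32.3, 27.9 and 18.1 to 70.9, 65.0 and 61.9 CPM (log2 fold change at equal score 1.33, SE 0.23, adjusted p = 0.0499). The hour of day at which arteries were taken is not given in the sources used here.

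Of 29 heat shock genes and chaperones 9 were higher (31%, against 5.42% of all genes) and 0 lower (against 8.04%) by an unadjusted p below 0.05 (median 0.80). edgeR called 0 with groups only, DESeq2 5 and limma voom 3, and edgeR called 2 at equal score, Hspa5 and Bag3. Hspa5, the main chaperone of the endoplasmic reticulum, rose from 129, 143 and 235 to 706, 490.1 and 571 CPM (log2 fold change at equal score 1.81, SE 0.30, adjusted p = 0.0483), and Bag3, which helps to clear damaged filament proteins in muscle, rose from 56.6, 156 and 133 to 844, 546 and 342 CPM (log2 fold change at equal score 2.25, SE 0.34, adjusted p = 0.0437). Of 28 genes of the unfolded protein and integrated stress responses 7 were higher (25%) and 0 lower by an unadjusted p below 0.05 (median 0.26). edgeR called 0 with groups only and Hspa5 at equal score, and DESeq2 and limma voom each called 5. Edem1, which sends misfolded proteins out for destruction, was at 53.4, 60.6 and 53.7 CPM in normal and 140.2, 117 and 136 CPM at 4 h (adjusted p = 0.0675). Of 31 fuel genes 8 were higher (25.8%) and 1 lower (3.23%) by an unadjusted p below 0.05 (median 0.31). edgeR called 0 with groups only and Arrdc3 and Pdk4 at equal score, and DESeq2 and limma voom each called 3. Irs2, which carries the insulin signal, was at 59.9, 76.0 and 53.1 CPM in normal and 213, 179 and 171 CPM at 4 h (adjusted p = 0.0885).

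Of 34 hypoxia targets 7 were higher (20.6%, against 5.42% of all genes) and 3 lower (8.82%, near the 8.04% of all genes) by an unadjusted p below 0.05 (median 0.43), with 0 called by edgeR, 5 by DESeq2 and 2 by limma voom. Ddit4, an inhibitor of mTOR, was at 64.8, 29.4 and 66.6 CPM in normal and 225, 377 and 186 CPM at 4 h (log2 fold change 2.29, SE 0.45, adjusted p = 0.0819). Vegfa, the growth factor of endothelium, was at 73.5, 73.4 and 69.8 CPM and 220.2, 149 and 146 CPM, with no overlap between the groups (log2 fold change 1.25, SE 0.24, adjusted p = 0.0808). Hmox1, which breaks down heme, was at 4.25, 1.88 and 1.24 CPM and 18.1, 10.8 and 9.72 CPM (log2 fold change 2.37, SE 0.59, adjusted p = 0.149).

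Of 227 genes named Zfp or Znf 53 were lower (23.3%, against 8.04% of all genes) and 4 higher (1.76%, against 5.42%) by an unadjusted p below 0.05, with a median of -0.28. edgeR called 0 with groups only, DESeq2 called 29 lower and 1 higher, and limma voom called 18 lower and 1 higher. At equal score 5 were called lower, Zfp111, Znf48, Zfp346, Zfp467 and, outside the naming rule, Zfp51. Zfp346 was at 18.8, 17.8 and 18.7 CPM in normal and 8.18, 7.08 and 8.79 CPM at 4 h, and Zfp467 was at 47.8, 37.1 and 36.0 CPM and 13.6, 19.9 and 16.5 CPM. Of 47 zinc finger genes with BTB or SCAN domains 14 were lower (29.8%) and 2 higher (4.26%) by an unadjusted p below 0.05 (median -0.37). With scaling by library size alone these medians were -0.45 and -0.55, against -0.167 for all genes (0.014 with TMM).

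Of 19 endothelial genes 4 were lower (21.1%, against 8.04% of all genes) and 0 higher (against 5.42%) by an unadjusted p below 0.05 (median -0.53). edgeR called 0 with groups only, DESeq2 2 lower (2.87% of all genes) and limma voom 1 lower (1.46% of all genes). Sox18, a factor of endothelial fate, was called at equal score, with 101, 63.3 and 23.0 CPM in normal and 6.38, 6.50 and 5.59 CPM at 4 h (log2 fold change at equal score -3.35, SE 0.52, adjusted p = 0.0437). Egfl7, which endothelium secretes, was at 142, 116 and 62.1 CPM and 35.6, 51.3 and 51.3 CPM (adjusted p = 0.174). The endothelial markers Pecam1 (293, 267 and 152 CPM in normal, 119.9, 208 and 234 CPM at 4 h) and Cdh5 (215, 62.0 and 66.9 CPM, 37.0, 86.7 and 84.4 CPM) overlapped between the groups. The summed list was 2740, 1900 and 1410 CPM in normal and 1150, 1610 and 1550 CPM at 4 h, and its part in these values was not tested. Of 32 angiogenic and Notch genes 8 were lower (25%, against 8.04%) and 3 higher (9.38%, against 5.42%) by an unadjusted p below 0.05 (median -0.22). edgeR called 0 of these, DESeq2 2 higher and 3 lower, and limma voom 1 in each direction. Jag1, a Notch ligand, was at 52.3, 95.1 and 88.5 CPM and 28.1, 30.4 and 29.2 CPM (log2 fold change -1.43, SE 0.27, adjusted p = 0.073).

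Receptors and ligands of vasoactive signals come next. Of 44 members 6 were lower (13.6%, against 8.04% of all genes) and 2 higher (4.55%, against 5.42%) by an unadjusted p below 0.05 (median -0.01). edgeR called Ptafr, DESeq2 called 2 higher and 2 lower, and limma voom called 2 higher and 1 lower. S1pr2, a receptor of sphingosine 1-phosphate that constricts vessels, was at 31.2, 16.9 and 26.9 CPM in normal and 4.58, 9.79 and 7.72 CPM at 4 h (log2 fold change -1.76, SE 0.36, adjusted p = 0.0899). Edn1, the gene of the constrictor endothelin, was at 13.3, 7.08 and 5.19 CPM and 30.2, 44.0 and 67.1 CPM (log2 fold change 2.46, SE 0.53, adjusted p = 0.104). Adrb1, the beta-1 adrenergic receptor, was at 0.448, 0.650 and 0.293 CPM and 2.37, 2.47 and 3.06 CPM, a level of few counts (adjusted p = 0.0758).

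For mitochondrial genes, the median log2 fold change was 0.30 for 34 nuclear subunits of complex I, 0.36 for 39 of complexes II to V, 0.16 for 23 fission and fusion genes and 0.14 for 41 mitophagy and autophagy genes, against 0.014 for all genes. With scaling by library size alone they were 0.13, 0.18, -0.01 and -0.04, against -0.167, so the last 2 changed sign. edgeR called 0 genes of these lists. By an unadjusted p below 0.05, 3 (8.82%), 3 (7.69%), 1 (4.35%) and 6 (14.6%) were higher, against 5.42% of all genes. In the lower direction there were 0, 0, 0 and 1 (2.44%), against 8.04% of all genes. DESeq2 called 0, 1, 0 and 1 of them, all higher, against 1.77% of all genes, and limma voom called none. Apoptosis genes had a median of 0.02 over 33 genes, with 3 higher and 3 lower (9.09% each, against 5.42% and 8.04% of all genes) by an unadjusted p below 0.05, edgeR calling 0, DESeq2 2 and limma voom 1 in each direction, and with scaling by library size alone the median was -0.17. Bcl2l1, which codes for the survival protein Bcl-xL, was at 114, 104 and 53.5 CPM in normal and 202, 247 and 205 CPM at 4 h (adjusted p = 0.164), and Casp8, the initiator caspase of death receptors, was at 10.5, 4.69 and 5.41 CPM and 1.55, 1.98 and 2.33 CPM (adjusted p = 0.0934).

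**Figure D5:**
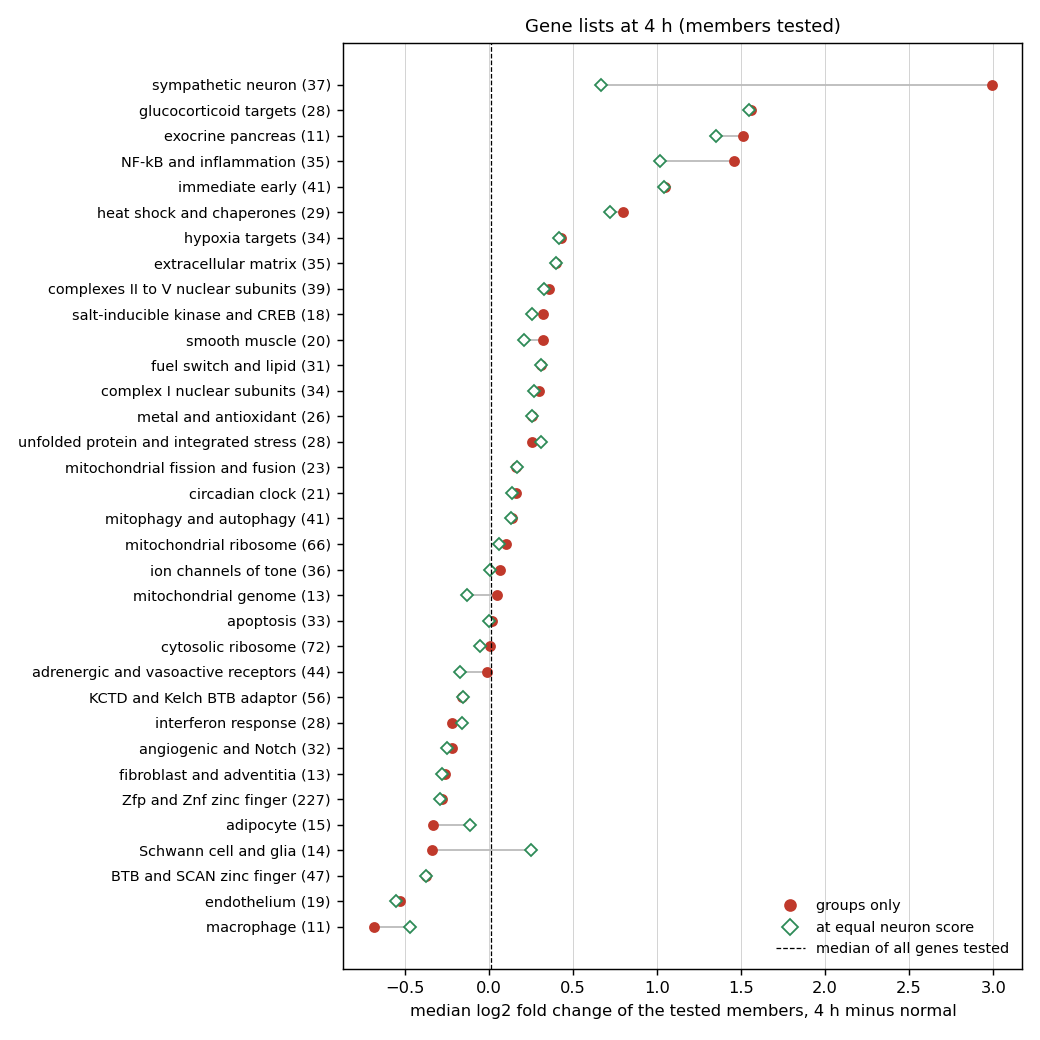
Median log2 fold change of 4 h minus normal over the tested members of 34 gene lists, all with at least 10 of them (number tested in brackets). Red circles are the fit with groups only and green diamonds the fit at equal neuron score. The sympathetic neuron list moves from 2.99 to 0.67, glucocorticoid targets stay at 1.56 and 1.55, and the dashed line is the median of all 14433 genes.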

How the data were processed

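RNA was extracted with Trizol from rat SMA (RIN above 8.0 per the labels) and sequenced on an Illumina instrument. In the deposited table each gene symbol has its whole-number read counts, which the authors made from aligned reads (the methods also describe microarrays, which such a table does not come from). HISAT2 is named in the submitters' processing notes without a version. The counting program, genome build, annotation and strand setting are not given in the sources used here, so overlapping and antisense genes may share counts.

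From these counts, edgeR 4.0.16 (R 4.3.3, limma 3.58.1) fitted quasi-likelihood models with TMM scaling to all 9 libraries. One model had the 3 groups as its term, and the other added the neuron score (mean log2 CPM of Dbh and Th, prior count 2). P-values were adjusted by Benjamini-Hochberg over all genes tested, and the SE is the absolute log2 fold change divided by the square root of F. All adjusted p-values are edgeR's unless another tool is named. The test was checked on simulated data. Named genes were the called genes with a known symbol, up to 15 in each direction, the 12 further genes with the lowest p in each direction at equal score (mean of at least 5 CPM), the 10 steepest positive and 5 steepest negative slopes (mean of at least 20 CPM), and the 6 lowest p-values of each gene list. Some genes that these rules would name are not reported here. The members and lists were chosen with earlier results of these data known. DESeq2 1.42.0, limma voom, other filters and scalings, a replicate block and each library left out in turn were the alternatives.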

Additional observations from a re-analysis of the deposited data

How the results depend on the processing

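Depth was similar in all libraries, and each group held 3 of them. The parts of counting error and of the spread between libraries in the calls were not tested. No named gene changed direction in any alternative. The medians of the clock, ion channel, fission and fusion, mitophagy and autophagy, and apoptosis lists changed sign with scaling by library size alone. So did those of the gut epithelium, the mitochondrial genome and the cytosolic and mitochondrial ribosome lists. The same scaling moved the median of all genes from 0.014 to -0.167. Of the counts, 15 calls at 4 h (11 higher, 4 lower), 103 at equal neuron score and 637 genes that followed the score, these moved by over 1.5 times, and the cause was not tested unless the setting itself shows it. DESeq2 called 669 genes (255 higher, 414 lower), 923 at equal score and 1752 that followed, and limma voom called 326 (115 higher, 211 lower), 213 and 2442. With the 6 libraries alone, which leaves fewer samples to estimate the spread, edgeR called 3 (3 higher, 0 lower, 1721 at an unadjusted p under 0.05), 6 and 347. With the neuron score as a covariate of the main contrast the calls were 103 (48 higher, 55 lower), and with the whole sympathetic list as the score they were 140 (64 higher, 76 lower), with 1121 genes following. edgeR's own filter on low counts gave 1223 following genes and no filter gave 1206, and no filter left 2 lower calls. Leaving out each library in turn gave 2 to 15 calls, 2 to 12 higher and 0 to 3 lower, 0 to 48 at equal score, and 144 to 907 following genes. RLE scaling and library size as the only scaling kept each of these counts within 1.5 times.

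Replicate numbers are shared by the groups, and no pairing was used in the main fits. The correlations of same-numbered deviations between normal and 4 h were -0.672, 0.243 and 0.082. So few libraries cannot show whether samples were paired. With the replicate block edgeR called 9 genes (9 higher, 0 lower, 1772 at an unadjusted p under 0.05), 7 at equal score and 131 that followed. Of the named calls, Sik1 held in all 19 alternatives, Nfil3 and Mfsd2a were lost in 1, and Zscan12 and Ptafr in 12.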

Other observations

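Of 35 extracellular matrix genes 6 were higher (17.1%, against 5.42% of all genes) and 1 lower (2.86%, against 8.04%) by an unadjusted p below 0.05, with a median log2 fold change of 0.40. Beside Adamts1, the related protease gene Adamts9 was at 24.4, 38.4 and 40.2 CPM in normal and 173, 73.7 and 88.4 CPM at 4 h (adjusted p = 0.154), without overlap between the groups. Postn, the gene of the matrix protein periostin, was at 66.9, 76.4 and 222 CPM in normal and 58.0, 36.8 and 33.4 CPM at 4 h, with normal replicate 3 well above the others (adjusted p = 0.33). Of 26 metal and antioxidant genes 6 were higher (23.1%) and 0 lower by an unadjusted p below 0.05 (median 0.26). Gclc, which makes the first step of glutathione synthesis, was at 34.9, 56.8 and 45.6 CPM in normal and 103, 61.1 and 104 CPM at 4 h (adjusted p = 0.202).

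Of 36 ion channel genes of vascular tone 3 were higher (8.33%, against 5.42% of all genes) and 1 lower (2.78%, against 8.04%) by an unadjusted p below 0.05 (median 0.07, or -0.09 with scaling by library size alone). The lower one, Ano1, a chloride channel opened by calcium, was at 14.6, 18.2 and 15.4 CPM in normal and 5.89, 7.98 and 7.39 CPM at 4 h (log2 fold change -1.18, SE 0.25, adjusted p = 0.104). Of 56 KCTD and Kelch adaptors of ubiquitin ligases 7 were lower (12.5%) and 2 higher (3.57%), against the same shares of all genes, by an unadjusted p below 0.05 (median -0.16). Klhl21 was at 52.8, 62.8 and 72.2 CPM in normal and 38.1, 41.5 and 37.7 CPM at 4 h (adjusted p = 0.15), and Kctd21 at 3.92, 4.12 and 6.44 CPM and 1.31, 1.15 and 1.60 CPM (adjusted p = 0.167). The summed levels of 17 exocrine pancreas genes were 75, 22.1 and 19 CPM in normal and 51.9, 115 and 191 CPM at 4 h, and those of 16 adipocyte genes were 3420, 1180 and 899 CPM in normal and 1250, 2030 and 1830 CPM at 4 h.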
